A study of Mus musculus with 8 samples.

Results

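In the cortex of mice with bilateral common carotid artery stenosis (BCAS), 617 promoter regions carried an ATAC-seq peak in every BCAS mouse and in no sham mouse. They were chosen by the presence of peaks alone. Peaks that overlapped by at least 1 bp in any of the 8 lists were joined, which gave 197916 regions, and a region was kept when all 4 BCAS lists and none of the 4 sham lists held a peak in it and its midpoint lay within 3 kb of a transcription start site (TSS). These gained promoter regions were 617 of 38149 promoter regions (1.62%), and of 3206 regions gained anywhere in the genome. Since the comparison of BCAS with sham selected them, their presence, strength and genes are described here without a test.

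ATAC-seq, in which the Tn5 transposase cuts and tags the DNA it can reach in nuclei, was performed on 4 BCAS and 4 sham mice with 1 library per mouse. All were male C57BL/6 mice of 14 weeks, and tissue was taken 3 weeks after surgery. BCAS mice had a microcoil placed around both common carotid arteries, the narrower on the right, which lowers blood flow to the brain for weeks, while in sham mice the arteries were exposed without coils. The labels give the right cerebral cortex as the tissue, whereas the study's own sample sheet describes the cortex of the whole brain, so the side is not certain. Nuclei of all cortical cells entered each library, so more nuclei of a cell type and a more open region in each nucleus cannot be told apart. The lists held 160848, 128080, 123439 and 119660 peaks in BCAS 1 to 4, against 107482, 132837, 145102 and 112362 in sham 1 to 4. Read counts are not part of the lists, and the sequencing depth under each peak is therefore unknown.

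Promoters are the stretches of DNA around a TSS where transcription factors and RNA polymerase gather, and nucleosomes are displaced there in cells that use the gene. PU.1, a factor of the ETS family encoded by Spi1, opens chromatin in microglia, the resident macrophages of the brain, and in other myeloid cells. It binds a purine-rich site around the bases GGAA, alone or beside an interferon regulatory factor (IRF) at a composite site. Microglia respond to poor blood supply with changes in shape, phagocytosis, and the release of chemokines and cytokines.

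The sequence around the summit is shown for 6 gained promoter regions, because GGAA sites of PU.1 were more frequent in the gained regions than in other promoter regions. The 6 were picked from a longer set that also held Ifi207, Notch3, Eno1 and Il1a, and are not meant as typical. Each run is GRCm38 (mm10) sequence of RefSeq centred on the summit of the strongest peak, read 5′ to 3′. Capitals mark the PU.1 letters GAGGAAGT or the PU.1-IRF composite GGAANNGAA, and where the match lies on the minus strand they are its reverse complement.
Tagap (chr17:7925843-7925963, plus strand): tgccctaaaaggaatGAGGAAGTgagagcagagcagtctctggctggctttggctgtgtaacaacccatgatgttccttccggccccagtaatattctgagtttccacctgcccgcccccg
Slfn5 (chr11:82952666-82952786, plus strand): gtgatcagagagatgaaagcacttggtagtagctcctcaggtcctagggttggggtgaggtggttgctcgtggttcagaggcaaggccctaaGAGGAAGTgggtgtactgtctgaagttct
Cd244a (chr1:171561342-171561462, plus strand): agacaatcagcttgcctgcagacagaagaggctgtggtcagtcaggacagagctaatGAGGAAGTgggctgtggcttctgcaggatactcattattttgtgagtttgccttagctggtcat
Cxcr4 (chr1:128590875-128590995, plus strand): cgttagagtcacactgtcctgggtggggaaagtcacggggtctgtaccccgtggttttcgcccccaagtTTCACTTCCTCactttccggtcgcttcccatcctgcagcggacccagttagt
Ccl4 (chr11:83662372-83662492, plus strand): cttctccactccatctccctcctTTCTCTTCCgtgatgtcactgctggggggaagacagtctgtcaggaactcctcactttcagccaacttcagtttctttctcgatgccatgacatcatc
Tlr9 (chr9:106223137-106223257, plus strand): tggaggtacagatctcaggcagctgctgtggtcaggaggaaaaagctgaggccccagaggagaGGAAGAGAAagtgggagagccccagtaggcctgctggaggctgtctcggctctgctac

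In Tagap, Slfn5 and Cd244a the capitals are PU.1 letters on the plus strand. In Cxcr4 the PU.1 letters and the composite overlap on the minus strand, so that a single stretch counts for both. Ccl4 holds the composite on the minus strand and Tlr9 on the plus strand. A match of letters is a description of the sequence and shows no binding.

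Of the 617 gained promoter regions, 93 held the PU.1 letters no more than 100 bp from the summit, or 15.1% (Wilson 95% interval 12.5 to 18.1%). Among all promoter regions the share was 2.95% (1124 of 38149), and among those open in all 8 lists it was 2.02%. Other promoter regions found in exactly 4 lists, which resemble the gained ones in how often they were called, held the letters in 2.66% (41 of 1540, interval 1.97 to 3.59%). The gained promoter regions therefore lay above each of these sets, with intervals that did not meet. These intervals cover counting error only, and no test was made, since regions of the same mice are not replicates.

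The shorter ETS core AGGAAGT, which is contained in the PU.1 letters, occurred in 197 gained promoter regions (31.9%, interval 28.4 to 35.7%), against 7.87% of all promoter regions. The PU.1-IRF composite occurred in 107 (17.3%, interval 14.6 to 20.5%), against 5.89% of all promoter regions. Of these, 28 also held the PU.1 or the IRF letters, or 4.54% of the 617, against 0.776% of all promoter regions. At least 1 of the ETS core, the PU.1 letters and the composite was present in 266 of the 617 regions (43.1%). That pooled share was not determined over all promoter regions. With the IRF and RUNX letters added to the pool, it was 51.4% of gained promoter regions, against 19.7% of all promoter regions and 21.7% of the other regions in exactly 4 lists. The letters CCGGAAGT of GABPA and ELK, ETS factors that act at the promoters of widely used genes, were found in 7 gained promoter regions (1.13%, interval 0.551 to 2.32%), against 4.55% of promoter regions open in all 8 lists and 0.195% of the other regions in exactly 4 lists (0.066 to 0.571%).

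**Figure D1:**
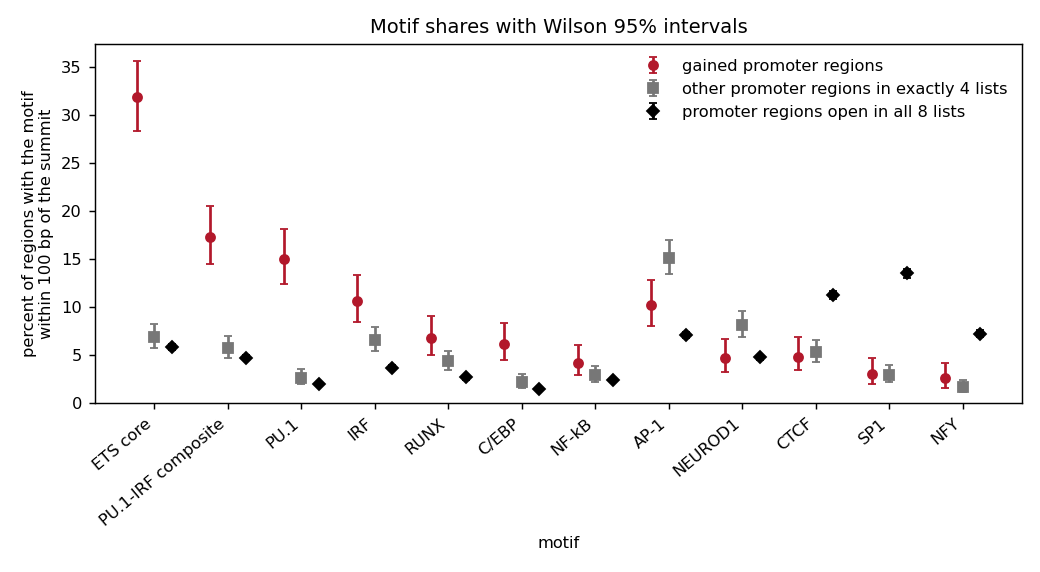
Percent of regions (vertical axis, from 0) that hold the letters of each motif at most 100 bp from the summit for gained promoter regions (circles), other promoter regions in exactly 4 lists (squares) and promoter regions open in all 8 lists (diamonds), with Wilson 95% intervals as bars. The ETS core stood at 31.9%, the composite at 17.3% and the PU.1 letters at 15.1% in gained promoter regions, above both other sets, whereas the SP1 letters stood at 3.08%, against 13.5% of regions open in all 8.

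Letters of some other factors of myeloid cells were also more frequent than over all promoter regions. Those of IRF (GAAANNGAA) occurred in 10.7% of gained promoter regions (interval 8.50 to 13.4%), against 4.95% of all promoter regions and 6.62% of the other regions in exactly 4 lists. Those of C/EBP (TTGCNCAA), which drives inflammatory genes in macrophages, occurred in 6.16% (4.52 to 8.34%), against 1.96% and 2.21%. RUNX letters (TGTGGTT) occurred in 6.81% (5.08 to 9.07%), against 3.604% of all promoter regions, with an interval that met that of the other regions in exactly 4 lists (4.35%, interval 3.44 to 5.49%). The NF-kB letters (GGGNNTTTC) were found in 4.21% (2.89 to 6.10%), against 2.57% and 2.92%, and its interval met that of the other regions in exactly 4 lists (2.19 to 3.89%).

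The letters of the remaining factors searched were no more frequent, within their intervals, than over all promoter regions. The AP-1 letters TGANTCA, bound by FOS and JUN proteins, occurred in 10.2% of gained promoter regions (8.06 to 12.9%), against 15.1% of the other regions in exactly 4 lists (13.4 to 17.0%) and 9.36% of all promoter regions. The letters CAGATGG of NEUROD1, a factor of excitatory neurons, occurred in 4.70%, against 5.95% of all promoter regions and 8.12% of the others in exactly 4 lists. CTCF letters (AGGGGGC) occurred in 4.86%, against 8.68% of all promoter regions and 5.32% of the others in exactly 4 lists. SP1 letters (GGGGCGGGG) occurred in 3.08%, against 8.57% and 2.99%. The NFY letters CCAATCA stood at 2.59%, against 5.06% and 1.69%, and the TATA box letters TATAAAA at 1.30%, against 1.98% and 3.12%. For CTCF, SP1 and NFY the interval of the gained promoter regions thus met that of regions called as often. SOX10 (ACAATGG, 1.62% against 2.10% of all promoter regions), MEF2 (CTAAAAATA, 0.486% against 0.590%) and EGR1 (GCGTGGGCG, 0.162% against 0.438%) were rare. The letters of RFX (GTTGCCATG) and NRF1 (GCGCATGCG) occurred in 0 of the 617 (a count that allows up to 0.486%), against 0.810% and 1.02% of all promoter regions.

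The PU.1 letters sat close to the summit in gained promoter regions. Their centre lay at a median of 21.5 bp from it, and within 25 bp in 51 of the 93 regions (54.8%). Over all 1124 promoter regions with the letters the median was 36.5 bp, and 35.7% lay within 25 bp. The composite (31 against 43 bp), C/EBP (31.5 against 43 bp) and RUNX letters (38 against 45 bp) also lay closer than over all promoter regions. The IRF letters (45 bp in both) did not. The AP-1 letters showed no such closeness, with a median of 43 bp in gained promoter regions and 36 bp over all promoter regions. These distances were not measured in the other regions in exactly 4 lists. With the gained promoter regions ordered by strength, 19.5% of the strongest 154 held the PU.1 letters (14.0 to 26.4%) and 12.9% of the weakest 155 (8.51 to 19.1%), intervals that overlapped. Strength here is the lowest, over the 4 BCAS lists, of the percentile that the region's peak held by fold enrichment within its list. The composite differed more, with 22.7% of the strongest (16.8 to 29.96%) and 9.03% of the weakest (5.46 to 14.6%).

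The PU.1 share was close at both distances from the TSS. Of the 209 gained promoter regions within 500 bp of a TSS, 16.3% (11.9 to 21.9%) held the PU.1 letters, and of the 408 farther away 14.5% (11.4 to 18.2%). The 1429 gained regions in introns held them in 15.2% and the 1051 gained regions in intergenic DNA in 14.9%. The composite stood at 13.9% (9.84 to 19.2%) within 500 bp of a TSS and 19.1% (15.6 to 23.2%) beyond, and the C/EBP letters at 2.87% (1.32 to 6.12%) and 7.84% (5.61 to 10.9%), each pair with overlapping intervals.

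In position, the gained promoter regions fell into a sharp group at the TSS and a broad group along the rest of the window. Of the 617, 181 (29.3%) had their midpoint within 250 bp of a TSS, 28 (4.54%) between 250 and 500 bp, and 30 to 52 in each further step of 250 bp. The median distance was 997 bp, against 180 bp for promoter regions open in all 8 lists and 1109 bp for the other regions in exactly 4 lists. A TSS lay inside 175 of them (28.4%), against 68.0% of the regions open in all 8 and 15.8% of the others in exactly 4 lists. Relative to the TSS of the gene that named them, 334 (54.1%) lay upstream.

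**Figure D2:**
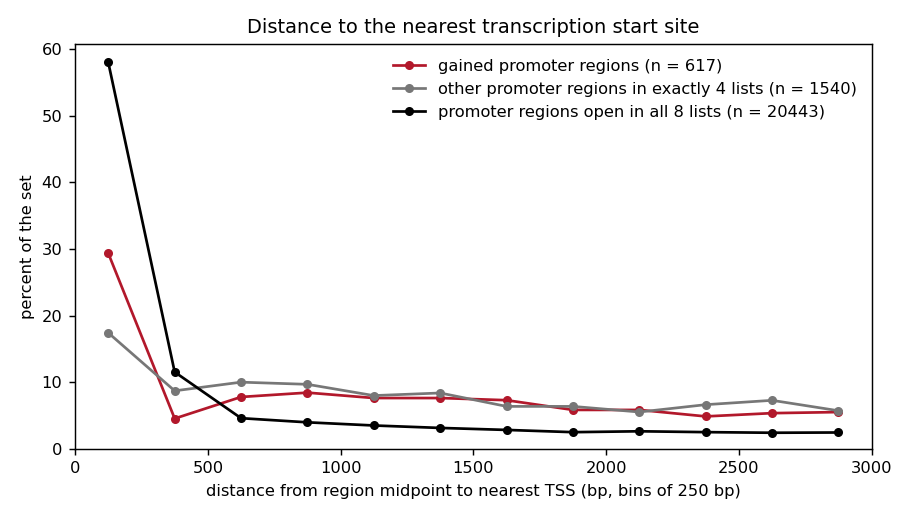
Percent of regions (vertical axis, from 0) by distance of the midpoint to the nearest TSS in bins of 250 bp (horizontal axis) for gained promoter regions, other promoter regions in exactly 4 lists and promoter regions open in all 8 lists. The first bin held 29.3% of gained promoter regions, 17.4% of the others in exactly 4 lists and 58.0% of those open in all 8.

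Beside promoter regions open in all 8 lists, the gained promoter regions were short and poor in CpG. Their median width was 361 bp, against 814 bp for promoter regions open in all 8 lists and 343 bp for the others in exactly 4 lists. Around the summit the median GC content was 51.7%, against 61.7% and 50.7%. The ratio of observed to expected CpG, which is high at the CpG islands of widely used genes, had a median of 0.223, against 0.667 in regions open in all 8 and 0.265 in the others in exactly 4 lists. Gained intronic and intergenic regions were alike, with median widths of 360 and 361 bp and median ratios of 0.205 and 0.197. A ratio above 0.6 together with a GC content above 50% was found in 29 gained promoter regions (4.70%), against 54.4% of regions open in all 8 and 12.2% of the others in exactly 4 lists. This held also at the TSS itself, where 18 of 209 gained promoter regions within 500 bp were CpG-rich (8.61%), against 25.4% of the 402 others in exactly 4 lists at that distance.

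By the authors' fold enrichment, the height of a peak's summit over its local background, the gained promoter regions were peaks of low to middle rank. Their median fold was 5.62, 5.09, 5.31 and 4.92 in BCAS 1 to 4, which placed them at the percentile 45.8, 36.6, 41.6 and 31.8 of all peaks of the list. Promoter regions open in all 8 lists stood at 82.9, 80.4, 79.6 and 79.4, higher in every library. The gained intronic regions were close to the promoter ones, at 49.3, 38.4, 44.9 and 37.0. In all 4 BCAS lists 92 of the 617 (14.9%) were above the median of the list, whereas 170 (27.6%) were in the lowest 10% of at least 1 list. The highest percentile fell most often in BCAS 1 (234 regions) and BCAS 3 (192), and less often in BCAS 4 (99) and BCAS 2 (92). The summits of the 4 BCAS peaks lay within 100 bp of each other in 520 regions (84.3%), with a median spread of 50 bp.

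**Figure D3:**
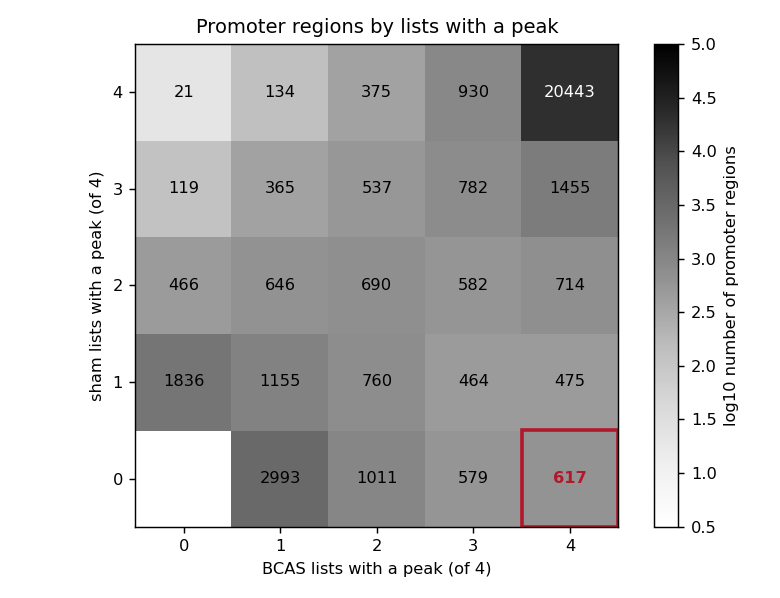
Number of promoter regions by how many BCAS lists (horizontal axis) and how many sham lists (vertical axis) held a peak in them, with darker squares for more regions on a log10 scale. The framed square holds the 617 gained promoter regions, against 21 with a peak in all 4 sham and no BCAS list, while 20443 were open in all 8.

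At the edge of the rule, 579 promoter regions had a peak in 3 BCAS lists and no sham list, and 475 had one in all 4 BCAS lists and 1 sham list. The opposite pattern, all 4 sham lists and no BCAS list, was found at 21 promoter regions (0.055%). Counts in this direction depended on BCAS 1, as given below. Just inside the rule by their lowest −log10 q were a region in an intron of Stra6l (−log10 q of 1.93) and one in an intron of Lbx2 (1.95). Just outside were a region at Casp4, an inflammatory caspase, and one at Psd3, each with a sham peak of −log10 q 2.02 in sham 3 alone. The fold enrichment at Casp4 was 8.52, 10.52, 6.17 and 7.39 in BCAS 1 to 4, against 3.07 in sham 3. At Psd3 it was 4.21, 4.07, 4.21 and 4.55, against 3.07 in sham 3.

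No sham peak lay within 500 bp of 535 gained promoter regions (86.7%), and the median gap to the nearest peak of any sham list was 2404 bp. A sham peak lay within 500 bp in 82, among them 31 with such a peak in all 4 sham lists. Peaks outside the gained region were also more frequent in BCAS. Some belong to another gained region of the same window, as at Itgb2, and such a region has no sham peak by the rule. The difference below is thus partly set by the choice of the regions. Outside the gained region, a peak within 3 kb of the TSS was present in 61.8, 54.8, 57.1 and 53.8% of the 617 promoters in BCAS 1 to 4, against 41.5, 46.7, 49.8 and 43.3% in sham 1 to 4, without overlap between the groups. The mean length covered there was 353, 279, 295 and 265 bp in BCAS, against 217, 260, 276 and 220 bp in sham, so that BCAS 4 lay below sham 3. The same share and length over all promoters were not determined. Of all promoter regions, 32778, 28416, 28442 and 27230 held a peak in BCAS 1 to 4. In sham 1 to 4 these were 24905, 28157, 29671 and 25539, ranges that overlapped.

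To read the same measure in libraries that did not choose the regions, the choice was repeated on 3 BCAS and 3 sham libraries and the remaining BCAS and sham libraries were read, for all 16 pairs. Each choice gave 673 to 1157 regions. A peak was present in 95.4, 77.1, 83.9 and 71.4% of them in BCAS 1 to 4 when left out, and in 3.91, 15.97, 24.6 and 18.9% in sham 1 to 4 when left out. These were means over 4 choices each. The share was higher in the left-out BCAS library in 16 of 16 pairs, by 45.6 to 92.0 points. All 16 pairs reuse the same 8 libraries and are not independent. Over the libraries, the mean was 82.0% ± 10.3 in BCAS and 15.8% ± 8.71 in sham (SD, n = 4 each). BCAS 1 and sham 3, where most of these peaks were found within their groups, were the libraries with the longest lists, and sham 1, with the fewest, had the shortest. The part of list length in these shares was not tested. Regions chosen in the opposite direction were fewer, 35 to 285 per choice, and the left-out sham library was higher in 13 of 16 pairs. Every exception left out BCAS 1. Choices without BCAS 1 gave 152 to 285 such regions, and BCAS 1 held a peak in 72.6 to 84.2% of them. All other choices gave 35 to 110. The number in this direction thus depended on BCAS 1, the longest list.

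**Figure D4:**
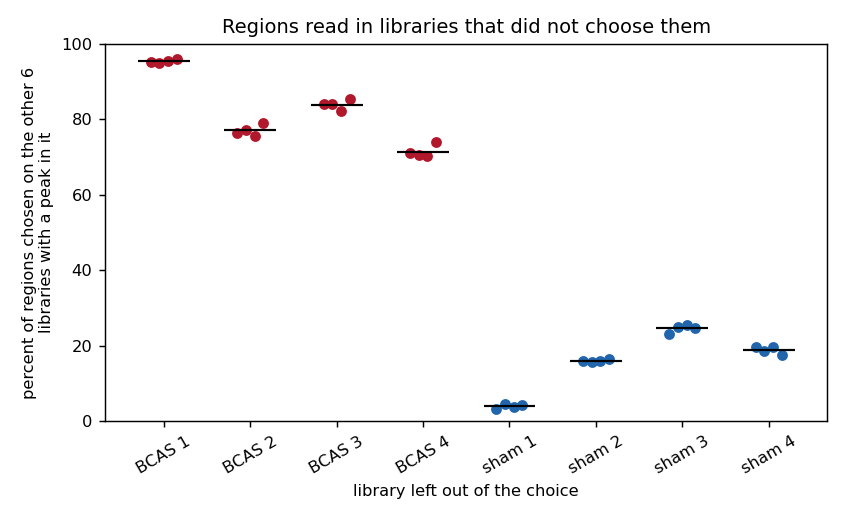
Percent of regions with a peak in a library that was left out when they were chosen (vertical axis, 0 to 100) for BCAS 1 to 4 and sham 1 to 4. Each point is 1 of 4 choices and the line their mean; the means were 71.4 to 95.4% in BCAS and 3.91 to 24.6% in sham.

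A protein-coding gene named 357 of the 617 regions (57.9%), a long noncoding RNA gene 109, a pseudogene 72, a microRNA gene 20 and another kind of gene 59. In all, 361 of 21911 protein-coding genes (1.65%) had a gained promoter region within 3 kb of a TSS, and 65.1% had a promoter region open in all 8 lists. Of the 357 regions, 218 (61.1%) lay at the most upstream TSS of their gene. The gene had a TSS peak in all 8 lists in 167 of the 357 (46.8%), against 60.5% of all protein-coding genes. Such a peak is a region open in all 8 lists that reached within 500 bp of any TSS of the gene. That peak could lie at another TSS of the gene, as at Acer3, Syk, Elf1 and Eno1, where no sham list covered a base within 3 kb of the TSS that named the region. A TSS peak in all 8 lists, at any TSS of the gene, was present for 43 of the 153 regions within 500 bp of a TSS (28.1%). It was present for 124 of the 204 farther away (60.8%).

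**Figure D5:**
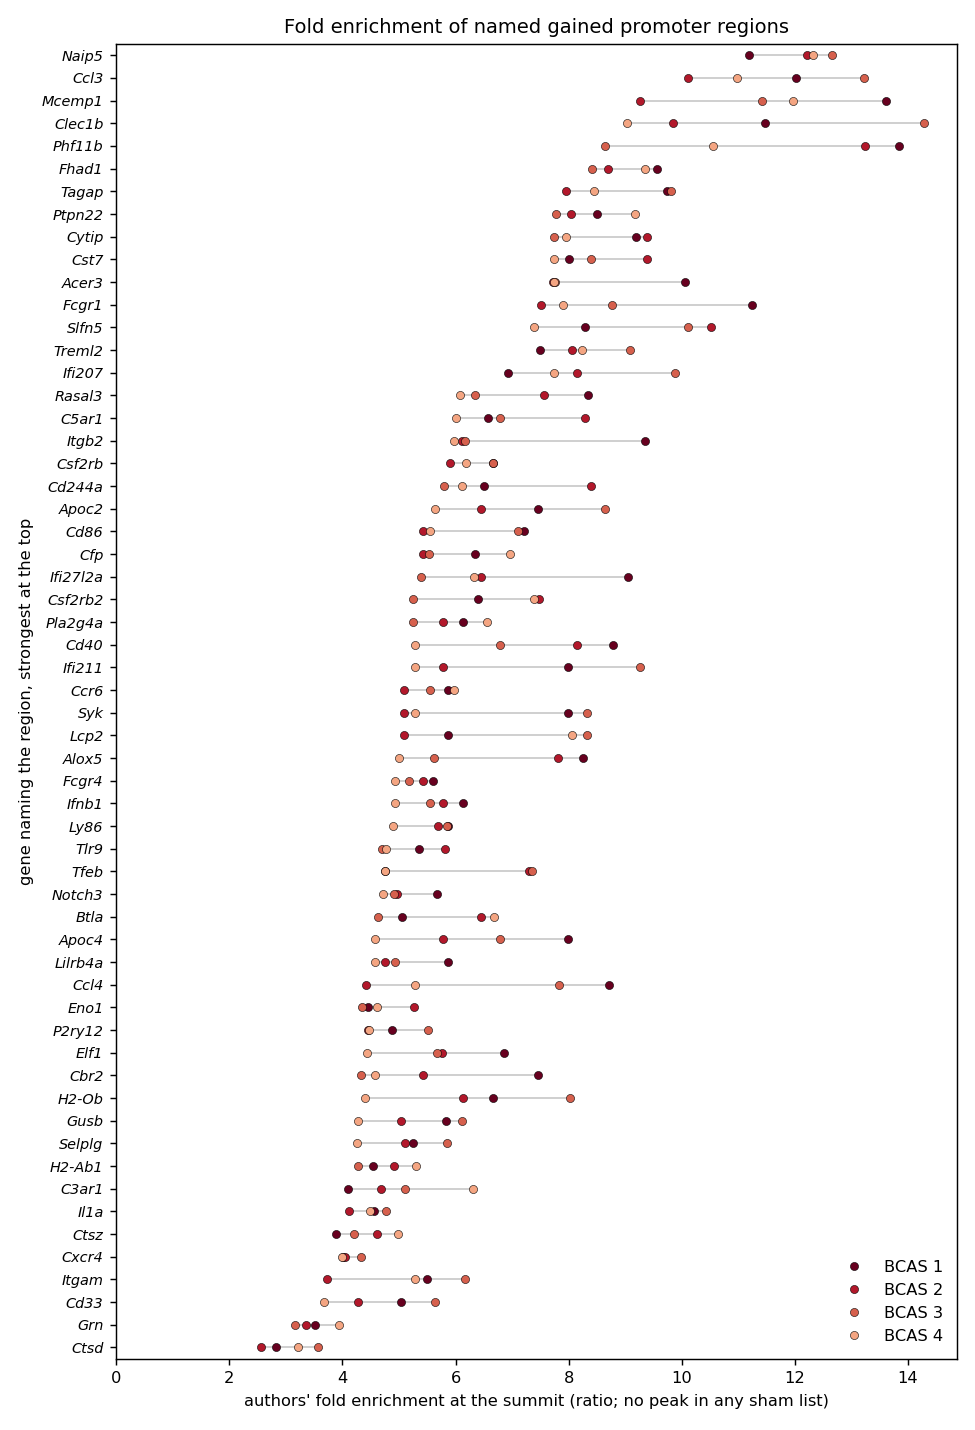
Authors' fold enrichment at the summit (horizontal axis, ratio, from 0) in BCAS 1 to 4 for gained promoter regions named by the strongest genes and by the gene lists, ordered by their lowest percentile within a list, with the strongest at the top. No sham list held a peak in any of them; Naip5 stood at 11.2 to 12.6 and Ctsd at 2.56 to 3.56.

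Of the 12 strongest genes, Naip5, Ccl3, Tagap, Cst7 and Fcgr1 belonged to 1 of the gene lists. The region of Naip5, a cytosolic sensor of bacterial flagellin that feeds the inflammasome, lay 878 bp upstream of the TSS and had a fold enrichment of 11.2, 12.2, 12.6 and 12.3 in BCAS 1 to 4. At Ccl3, a chemokine of macrophages, the region spanned 781 bp across the TSS, with 12.02, 10.1, 13.2 and 10.98. Mcemp1, which encodes a membrane protein of mast cells and other myeloid cells, had 13.6, 9.26, 11.4 and 11.96 at 1120 bp upstream. The lowest percentile by fold in any BCAS list was 86.9 for Naip5, 83.8 for Ccl3 and 79.9 for Mcemp1. Naip5 has close paralogs beside it, and how reads matching several copies were placed is not given in the sources used here.

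Clec1b, a C-type lectin receptor that binds podoplanin, had its region in an exon 2493 bp downstream of the named TSS, with a fold of 11.5, 9.84, 14.3 and 9.03 in BCAS 1 to 4. Phf11b, a gene of the PHD-finger family, had 13.8, 13.2, 8.64 and 10.6 at 74 bp upstream, where PU.1, ETS core and IRF letters were found. Fhad1 was the only one of the 12 strongest, together with Acer3, whose gene had a TSS peak in all 8 lists. Its region had 9.57, 8.70, 8.42 and 9.34 and lay 2855 bp upstream. Acer3, an alkaline ceramidase, had 10.05, 7.72, 7.76 and 7.74, with BCAS 1 apart from the other 3.

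Tagap, a GTPase-activating protein of activated lymphocytes, had 9.74, 7.95, 9.81 and 8.44 in BCAS 1 to 4 with the PU.1 letters shown above. Ptpn22, a phosphatase that dampens receptor signalling, had 8.51, 8.05, 7.77 and 9.18, and a sham peak lay 162 bp away. Cytip, a cytohesin-binding protein of blood cells, had 9.19, 9.39, 7.73 and 7.95, with IRF, composite, RUNX and C/EBP letters. Cst7, the cathepsin inhibitor cystatin F, had 8.00, 9.38, 8.39 and 7.74. Fcgr1, the high-affinity receptor for IgG, had 11.2, 7.51, 8.76 and 7.89. Of these 12 genes, Naip5, Ccl3, Mcemp1, Clec1b, Phf11b, Tagap, Cytip, Cst7, Acer3 and Fcgr1 had no covered base within 3 kb of the named TSS in any sham list. At Fhad1, peaks outside the gained region covered 363, 643, 437 and 491 bp in BCAS, against 549, 723, 620 and 580 bp in sham, ranges that overlapped.

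Each gene list was chosen with earlier results of these data known, and its share is a description without a test. Of 27 genes of Fc receptors and phagocytic signalling, 8 (29.6%) had a gained promoter region, against 1.65% of all protein-coding genes. Among them were the IgG receptors Fcgr1, Fcgr3 and Fcgr4, the chains Itgam and Itgb2 of complement receptor 3, and the kinases Syk and Fgr. The region of Itgb2 lay 52 bp downstream of the TSS with a fold of 9.34, 6.11, 6.17 and 5.98 in BCAS 1 to 4 and held PU.1 and RUNX letters. Syk had 7.99, 5.09, 8.33 and 5.28 at 29 bp downstream. Itgam, whose region covered the TSS, had 5.50, 3.73, 6.17 and 5.28. No sham list covered a base within 3 kb of the named TSS of any of these 3. Fcgr4 had 5.59, 5.43, 5.18 and 4.92 at 28 bp upstream, with PU.1 and IRF letters.

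Pan-leukocyte genes had the highest share of all lists, with 12 of 34 (35.3%), against 1.65% of all protein-coding genes. The same number of the 34 had a promoter region open in all 8 lists. Ptprc, which encodes the leukocyte antigen CD45, had a region 19 bp upstream of the TSS with a fold of 9.32, 4.75, 8.02 and 7.03 in BCAS 1 to 4 and the ETS core. Lcp2, an adaptor downstream of Syk, had 5.86, 5.09, 8.33 and 8.05, with PU.1 letters. Rasal3, a regulator of Ras, had 8.33, 7.57, 6.35 and 6.07 at 49 bp upstream, and a sham peak lay 412 bp away. The others were Coro1a, Cd52, Arhgap9, Arhgap45, Plek, Itgb2, Parvg, Fyb and Tagap. Coro1a, Lcp2, Cd52, Itgb2 and Tagap held the PU.1 letters.

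Of 31 inhibitory and activating receptors of myeloid cells, 5 (16.1%) were among the genes, against 1.65% of all protein-coding genes. These were Lilrb4a, Cd33, Trem3, Treml2 and Cd244a. Treml2 was the strongest, with 7.49, 8.06, 9.09 and 8.23 in BCAS 1 to 4 at 15 bp downstream of its TSS. Cd244a, a receptor of the SLAM family, had 6.49, 8.39, 5.79 and 6.11 in an intron with the PU.1 letters shown above. Lilrb4a had 5.86, 4.75, 4.94 and 4.57, with the nearest sham peak 34463 bp away. Cd33, an inhibitory Siglec, had 5.04, 4.27, 5.63 and 3.68 at 2521 bp downstream, at a gene with a TSS peak in all 8 lists. Outside the gained region, peaks covered 588, 454, 394 and 819 bp of the promoter in BCAS, against 250, 280, 262 and 235 bp in sham.

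Among 26 chemokines and chemokine receptors, 5 (19.2%) had a gained promoter region, against 1.65% of all protein-coding genes. Ccl4, a chemokine of macrophages, lies beside Ccl3. Its region, 110 bp upstream of the TSS, had a fold of 8.71, 4.41, 7.83 and 5.28 in BCAS 1 to 4 and holds the composite shown above. Ccr6, the receptor of Ccl20, had 5.86, 5.09, 5.55 and 5.98 in an intron. Cxcr4, the receptor of Cxcl12, had 4.02, 4.04, 4.33 and 3.99 in an intron 1339 bp downstream of the TSS. Its promoter was covered in both groups outside that region, over 1211, 1166, 1082 and 991 bp in BCAS, against 1075, 891, 1251 and 675 bp in sham, ranges that overlapped. The region of Cxcl16 was named by its neighbour Zmynd15.

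Of 31 genes of cytokines and their receptors, 5 (16.1%) had one, against 1.65% of all protein-coding genes. Csf2rb and Csf2rb2 encode the beta chains through which GM-CSF, IL-3 and IL-5 signal. Csf2rb had a fold of 6.65, 5.90, 6.67 and 6.18 in BCAS 1 to 4 and Csf2rb2 had 6.39, 7.47, 5.24 and 7.39, both with PU.1 letters within 100 bp of the summit. The 2 genes are close paralogs, so that reads may be shared between them. Ifnb1, interferon beta, had 6.12, 5.77, 5.55 and 4.92 at 692 bp upstream. Il1a, an alarm cytokine, had 4.57, 4.12, 4.76 and 4.49 at 877 bp upstream, with the composite. Tnf, the inflammatory cytokine of macrophages, had 5.86, 4.75, 4.84 and 4.22 at 49 bp upstream with the ETS core.

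The innate sensors counted 3 of 31, Naip5, Tlr9 and Ly86 (9.68%, against 1.65% of all protein-coding genes). Tlr9, the endosomal receptor of unmethylated DNA, had 5.35, 5.81, 4.70 and 4.77 in BCAS 1 to 4 in an intron 607 bp downstream of the TSS, where the composite shown above lies. Ly86, also called MD-1, a partner of the Toll-like protein RP105, had 5.86, 5.69, 5.85 and 4.90. Outside that region, peaks covered 954, 549, 717 and 609 bp of the Ly86 promoter in BCAS, against 398, 611, 497 and 335 bp in sham. BCAS 2 and BCAS 4 lay below sham 2, although the BCAS lengths include another gained region of Ly86.

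Interferon-stimulated genes counted 10 of 44 (22.7%), against 1.65% of all protein-coding genes. Slfn5, of the Schlafen family, had a fold of 8.29, 10.52, 10.1 and 7.39 in BCAS 1 to 4 at its strongest region, in an intron 615 bp downstream of the TSS, with the PU.1 letters shown above. Ifi207 and Ifi211, of the cluster of IFI200 genes that includes DNA sensors, had 6.92, 8.14, 9.87 and 7.74 and 7.99, 5.77, 9.26 and 5.28. Ifi27l2a had 9.05, 6.45, 5.39 and 6.33 at 50 bp downstream. Oas1a, which makes the second messenger of RNase L, and its relatives Oasl1 and Oasl2, the GTPase Gbp2, the RNA sensor Ddx58 (RIG-I) and Slfn8 completed the group. Oas1a, Gbp2, Ifi211, Slfn8 and the strongest region of Slfn5 held the IRF letters. The Schlafen, IFI200 and OAS genes are families of close copies, with the same limit on the placing of reads as Naip5.

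Of 22 genes of antigen presentation, 6 (27.3%) were among them, against 1.65% of all protein-coding genes. Cd86 and Cd40 encode costimulatory proteins of antigen-presenting cells. Cd86 had a fold of 7.22, 5.43, 7.10 and 5.56 in BCAS 1 to 4, and Cd40 had 8.79, 8.14, 6.79 and 5.28 at 4 bp upstream, and no sham list covered a base of either promoter. H2-Ab1, a chain of the MHC class II molecule, had 4.55, 4.92, 4.27 and 5.31 at 1513 bp upstream, at a gene with a TSS peak in all 8 lists. H2-Oa and H2-Ob, the chains of the class II modulator H2-O, and Tapbp, the class I chaperone tapasin, were the other 3. Among 19 complement genes, C3ar1, C5ar1, Cfp and Itgam had one (21.1%). C5ar1, the receptor of C5a, had 6.58, 8.29, 6.78 and 6.01 in an intron. C3ar1, the receptor of C3a, had 4.10, 4.69, 5.11 and 6.31, and Cfp, properdin, had 6.34, 5.43, 5.52 and 6.96 at 86 bp downstream.

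Lysosomal genes counted 5 of 30 (16.7%) and genes of lipid handling 5 of 28 (17.9%), against 1.65% of all protein-coding genes. Most of the lysosomal promoters were open in both groups, since 25 of the 30 genes (83.3%) had a promoter region in all 8 lists. Ctsz, a cathepsin, had a region 618 bp upstream with a fold of 3.89, 4.61, 4.20 and 4.99 in BCAS 1 to 4, and a sham peak lay 277 bp away. Grn, progranulin, had 3.51, 3.36, 3.16 and 3.94, and Ctsd, cathepsin D, had 2.82, 2.56, 3.56 and 3.22, among the lowest of all named genes. At Ctsd the length covered outside the gained region was 835, 525, 452 and 691 bp in BCAS, against 549, 560, 829 and 779 bp in sham, ranges that overlapped. Tfeb, the transcription factor that controls lysosomal genes, had 4.75, 7.30, 7.35 and 4.75. In the lipid list, Apoc2 and Apoc4 encode apolipoproteins and Alox5 the 5-lipoxygenase of leukotriene synthesis. Alox5 had 8.25, 7.81, 5.62 and 5.00, Apoc2 had 7.46, 6.45, 8.64 and 5.63, and Pla2g4a, a phospholipase that frees arachidonic acid, had 6.12, 5.77, 5.24 and 6.55.

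Genes that mark microglia mostly had a promoter region open in both groups. Of 20 genes of microglial identity, 16 (80.0%) had a promoter region in all 8 lists and 2 a gained one, P2ry12 and Selplg, against 1.65% of all protein-coding genes. P2ry12, the ADP receptor of resting microglia, had 4.87, 4.44, 5.51 and 4.46 in BCAS 1 to 4 at 1303 bp upstream. Outside that region its promoter was covered over 955, 717, 676 and 875 bp in BCAS, against 455, 441, 716 and 401 bp in sham, so that BCAS 3 lay below sham 3. Of 19 genes of disease-associated microglia, 15 (78.9%) were open in all 8 and 3 (15.8%) had a gained region, Cst7, Ctsd and Ctsz. Clec7a, also of that list, named a gained promoter region too. It was not matched to a protein-coding gene of the annotation and is not in these counts. Of 43 myeloid transcription factors, 36 (83.7%) were open in all 8 and only Elf1, itself of the ETS family, had a gained region (2.33%), with 6.85, 5.76, 5.68 and 4.43 at a TSS other than its most upstream one.

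Lists of other cells that the cortex could hold counted 1 gene each, against 1.65% of all protein-coding genes. Border macrophages, monocytes and neutrophils had 1 of 24 (4.17%), Cbr2, a carbonyl reductase, with 7.46, 5.43, 4.32 and 4.57, and 3 of the 24 genes were open in all 8. T, B and NK lymphocytes had 1 of 26 (3.85%), the inhibitory receptor Btla, with 5.06, 6.45, 4.63 and 6.68, and 3 of the 26 were open in all 8. Mural cells and fibroblasts had 1 of 20, Notch3, with 5.66, 4.97, 4.92 and 4.72 in an intron that holds the PU.1 letters. The part of changed cell numbers in the gained regions was not tested.

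There were 10 lists without a gained gene. Across these lists (astrocytes, reactive astrocytes, oligodendrocytes and their precursors, endothelial cells, excitatory and inhibitory neurons, activity-regulated genes, cell cycle, and extracellular matrix and proteases), 0 of 195 genes had a gained promoter region, against 1.65% of all protein-coding genes, a share so low that few would be counted among 195 genes. Most had promoters open in all 8 lists, among them 18 of 20 genes of excitatory neurons, 17 of 18 of astrocytes, 16 of 18 of oligodendrocytes and 20 of 20 activity-regulated genes. The share was below the 65.1% of all protein-coding genes for endothelial cells (12 of 23), extracellular matrix and proteases (15 of 25) and reactive astrocytes (13 of 21). Hypoxia had 1 of 22 (4.55%), the glycolytic enzyme Eno1, with 4.46, 5.27, 4.34 and 4.61 in BCAS 1 to 4, and all 22 were open in all 8. Gusb, a lysosomal enzyme that also stands in the housekeeping list, was the single gene there (1 of 20).

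Some of the gained promoter regions lay near each other, in part as 2 regions of 1 gene, such as Itgb2 or Fcgr1. The share of neighbours among all promoter regions was not determined, so how usual the counts below are was not tested. Another gained promoter region lay within 100 kb of 158 of them (25.6%), which formed 71 groups, and 4 groups held 4 regions each. These 4 were the Schlafen genes on chromosome 11 from 82951927 to 83065203, the Trem genes on chromosome 17 from 48247525 to 48316524, the genes Pira2 and Lilra6 of paired receptors on chromosome 7 from 3825617 to 3915767, and a stretch with Prss27 and Amdhd2 on chromosome 17 from 24006930 to 24165217. By chromosome, the share of promoter regions that were gained was highest on chromosome 17, with 49 of 1645 (2.98%), followed by 7 (2.26%), 1 (2.16%) and 11 (2.13%). It was lowest on chromosomes 12 (0.811%), X (0.874%) and 9 (0.933%), leaving out chromosome Y, which held none among its 15 promoter regions.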

How the data were processed

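Reads had been trimmed by the authors (Trim Galore, after FastQC) and mapped with Bowtie2 2.3.4.3 to the mm10 build. SAMtools 1.9 handled the alignments, duplicates were removed, and MACS2 called the peaks of every library separately (DiffBind served a comparison that was not used here). Not given in the sources used here were the MACS2 options, how the Tn5 offset was handled, and where reads with several matches were placed. Each deposited list gives per peak an integer score, the fold enrichment of the summit (a ratio to the local background), and the −log10 p-value and −log10 q-value, all made by the authors within that library. The lowest deposited −log10 q was 1.309. Fold values were ranked within each list, and the score was not used further.

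Analyses ran in Python 3.11.15 with pandas 2.3.3, numpy 2.4.6 and scipy 1.17.1, and plots in matplotlib 3.10.9. Genes and TSSs came from GENCODE vM21 (basic, 77163 TSSs) and sequence from GRCm38 of RefSeq. Peaks on 21 chromosomes were merged, and each promoter region was named by the nearest protein-coding TSS within 3 kb, or else by the nearest other TSS. Consensus letters of 19 motifs were searched on both strands in 201 bp around the summit. Shares carry Wilson 95% intervals and a count of 0 the limit that 3 counts would give. Both cover counting error only. In all, 685 of 691 list genes were matched to protein-coding genes of the annotation. Members, the 29 gene lists and motifs were chosen with earlier results of these data known, and no test was made.

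Named genes were the 12 strongest protein-coding genes by lowest percentile (predicted genes left out), up to 4 genes of each list in that order, and 2 regions on each side of the rule. Further genes named complete a list, apart from an item that is not reported here, and genes of neighbouring groups were chosen after their values were seen. The merging and motif search were checked on simulated data. Alternatives were a stricter threshold, omission of each library, lists cut to equal length, promoters of 1 kb, protein-coding TSSs only, a margin to sham peaks, merging of BCAS peaks alone, a motif window of 50 bp and the ETS core.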

Additional observations from a re-analysis of the deposited data

Results flagged for a closer look

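In 3 of 67 groups of 4 BCAS libraries tested, 1 library stood apart from the other 3, and chance flags about 1 in 20 groups. At Acer3 the fold enrichment of 10.05 in BCAS 1 was far above the other BCAS libraries (7.72 to 7.76). At Itgb2 the 9.34 of BCAS 1 lay above 5.98 to 6.17. At Cxcr4 the 4.33 of BCAS 3 lay above 3.99 to 4.04. BCAS 1 had the longest list of all 8 libraries, and the part of list length in these values was not tested.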

How the results depend on the processing

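The number of gained promoter regions was 592 with a −log10 q of at least 5, 568 with lists of equal length, 535 with no sham peak within 500 bp and 617 when BCAS peaks were merged alone. It was 651 to 871 without single BCAS libraries and 638 to 807 without single sham libraries, since a rule on 7 lists is easier to meet. With promoters of 1 kb, 310 regions and 204 genes met the rule. Of these regions, 67.4% lay within 500 bp of a TSS and 33.2% had a gene with a TSS peak in all 8 lists. With protein-coding TSSs only, there were 357 regions, 42.0% of them within 500 bp. The PU.1 share was 11.3% within 50 bp of the summit and 31.9% with the ETS core, and 13.1 to 16.2% without single libraries. Without single libraries the share within 500 bp was 32.8 to 36.9%, that with a TSS peak in all 8 lists 45.3 to 49.3%, and the genes numbered 375 to 495. No paired analysis was made, since no test was made. The lists hold no read counts, so a missing sham peak may be signal under the threshold of the peak caller, and this was not tested. The gain at a promoter was read as the presence of peaks, not as an amount of open DNA.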

Other observations

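Genes not typed as protein-coding named 260 of the gained promoter regions. Those regions lay less often at a TSS (21.5% within 500 bp, against 42.9% of the 357 named by protein-coding genes). The PU.1 letters were found in 39 of the 260 and 54 of the 357. The 260 regions had a median lowest percentile of 29.8, and those named by protein-coding genes 17.6. Among the 73 long intergenic noncoding RNA genes was Mir142hg, the host gene of miR-142, a microRNA of blood cells. Its region on chromosome 11 from 87755341 to 87755702 lay 55 bp upstream of the TSS, with a fold enrichment of 6.67, 5.65, 5.49 and 5.66 in BCAS 1 to 4, and the nearest sham peak was 3969 bp away. Mirt1 had 7.37, 6.63, 7.18 and 6.32 at 34 bp upstream. Of the 20 microRNA genes, Mir3971 had 9.71, 7.54, 9.93 and 9.72 at 1375 bp upstream, and Mir700 had 7.54, 6.21, 4.71 and 5.23 at 91 bp downstream. These genes were chosen after their values were seen.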
